A study of Mus musculus with 10 samples.

Results

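Rab genes encode small GTPases that direct vesicle traffic, and 55 of them were measured in splenic CD4+ T cells of DBA/1 mice, an inbred strain, among 17097 genes on Affymetrix mouse expression arrays. The members were all genes whose symbol is Rab followed by a number and at most 1 letter. Each gene was read from 1 probe set, a group of short probes for 1 transcript, namely the one with the highest mean over the arrays. Of the 55, 42 lay above the 50th percentile of the array on at least 2 arrays and were tested, and 13 were set aside as dim.

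A Rab protein bound to GTP sits on 1 kind of membrane and recruits effectors that bud, move, tether or fuse vesicles there. Exchange factors load GTP, GTPase-activating proteins end the signal, and escort and dissociation proteins carry the prenylated Rab between membrane and cytosol. In T cells this traffic recycles the T cell receptor and integrins to the surface, takes receptors to lysosomes, and brings the granules of cytotoxic cells to the plasma membrane through Rab27a.

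The study set CD4+ cells of dendritic cell-injected mice against those of naive mice, and compared CD49b+ with CD25+ cells, both described as regulatory T cells. Of the 10 arrays, 2 held CD4+ T cells from naive mice and 2 held those from injected mice, while 3 held sorted CD49b+ and 3 sorted CD25+ cells, both from injected mice. Injection meant 500000 immature dendritic cells given intraperitoneally on 3 occasions, 7, 5 and 3 days ahead of spleen removal. All cells were CD4+ cells enriched with magnetic beads, stained for CD4, CD49b (the integrin alpha 2 chain, gene Itga2) and CD25 (the interleukin 2 receptor alpha chain, gene Il2ra) and sorted. No subset was sorted from naive mice, and age and sex are not given in the sources used here. Cells of several mice were pooled, and nothing says that replicate arrays hold separate pools, so a p-value here rests on the spread of these samples alone, and that spread may be technical. The number of arrays limits the precision.

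Values are log2 levels, so a difference of 1 is a 2-fold difference. Differences are given ± the standard error (SE) of 1 limma model over all arrays, and a gene was called where the p-value, adjusted by the Benjamini-Hochberg method over all 11037 genes tested in that comparison, was under 0.05. Il2ra averaged 8.83 in CD25+ cells, 6.29 in CD49b+ cells and 4.17 in either CD4+ group, whereas Itga2 averaged 5.82 in CD4+ cells of injected mice and 5.78 in CD49b+ cells, so that its transcript did not mark the CD49b+ sort. The 7 measured T cell markers lay above the array median in every group. The median of an array was 4.79 to 4.81 on the 4 CD4+ arrays and 4.61 to 4.65 on the 6 arrays of the subsets. The 3′ minus 5′ difference of Gapdh, a measure of RNA quality, was -0.01 and 0.06 on the naive arrays, 0.26 and 0.13 on the CD4+ arrays of injected mice, 0.23 to 0.69 on the CD49b+ arrays and 0.37 to 0.60 on the CD25+ arrays. Both measures move with the subsets, and their part in the Rab differences was not tested. In sorted bulk cells, fewer cells that express a gene and less RNA per cell cannot be told apart.

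CD49b+ cells carried the widest Rab differences. Against CD4+ cells of injected mice, 15 Rab genes were higher, 8 were lower and 19 were not called, and the 5 differences of at least 2-fold were all increases: Rab19, Rab4a, Rab29, Rab8b and Rab27a. The call was as frequent among all genes, of which 53.4% were called, 29.9% as higher and 23.5% as lower, while 54.8% of the Rab genes were. Calls of at least 2-fold upward made up 7.05% of all genes. The median difference was 0.14 over the 42 Rab genes and 0.03 over all genes tested. The arrays of the CD49b+ and CD4+ groups did not overlap for 32 of the 42 Rab genes (76.2%), beside 70.3% of all genes. When each array was centred on its own median, which moved the median difference of all genes up by 0.19 and the share of higher genes among all calls from 56% to 78.3%, 22 Rab genes were called higher and 4 lower. The lower group lay within 1 log2 unit of its array median for 6 of the 8 downward calls but for 2 of the 15 upward ones.

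CD25+ cells differed less from the same CD4+ arrays. There 5 Rab genes were higher (Rab37, Rab19, Rab8b, Rab32 and Rab7), 5 were lower (Rab20, Rab1a, Rab3a, Rab7b and Rab13), 32 were not called, and 0 differed by 2-fold or more. Of all genes, 38.6% were called, 20.8% higher and 17.8% lower, and 6.44% by at least 2-fold. Of the Rab genes 23.8% were called in this fit. That share depends on the scaling, since centring gave more Rab calls, and the share of all genes called after centring is not given here. The median was 0.02 for the Rab genes and 0.02 for all genes. Arrays did not overlap for 26 Rab genes (61.9%), beside 58.9% of all genes. Centring moved the median of all genes up by 0.16 and the share of higher genes from 53.9% to 78.6%, and it gave 14 higher and 3 lower Rab genes. All 5 downward calls lay within 1 log2 unit of the array median in the CD25+ group. Both comparisons share the 2 CD4+ arrays of injected mice, so their values are given side by side below.

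The direct comparison of the subsets does not use those arrays. Rab4a, Rab19, Rab29, Rab27a, Rab8a, Rab35, Rab11a, Rab1b, Rab31 and Rab8b were higher in CD49b+ than in CD25+ cells, Rab32 and Rab33b were lower, and 30 were not called. That is 28.6% of the Rab genes called, beside 29.9% of all genes, of which 17.5% were higher and 12.4% lower. The median was 0.08 over the Rab genes and 0.03 over all genes. Rab4a and Rab19 differed by at least 2-fold, as did 2.51% of all genes upward. Arrays did not overlap for 19 Rab genes (45.2%), of which 17 were higher in CD49b+ cells, and for 41.6% of all genes. The replicate numbers were taken to pair the arrays of these subsets, a hint from these data that the labels do not state. With that number as a block in the limma fit, Rab4b, Rab2a and Rab6a were called higher as well (adjusted p = 0.024, 0.0116 and 0.049).

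Dendritic cell injection was not followed by a called difference in any Rab gene. Between CD4+ cells of injected and naive mice 0 of the 42 were called by limma, 8 had an unadjusted p under 0.05, and differences ran from -0.44 for Rab20 to 0.43 for Rab1a. Of all genes, 1.39% were called, 0.0272% as higher and 1.36% as lower, and 1365 had an unadjusted p under 0.05. The Rab median was -0.07 and that of all genes -0.03. With 2 arrays a group, arrays did not overlap for 27 Rab genes (64.3%) and for 48.5% of all genes.

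**Figure D1:**
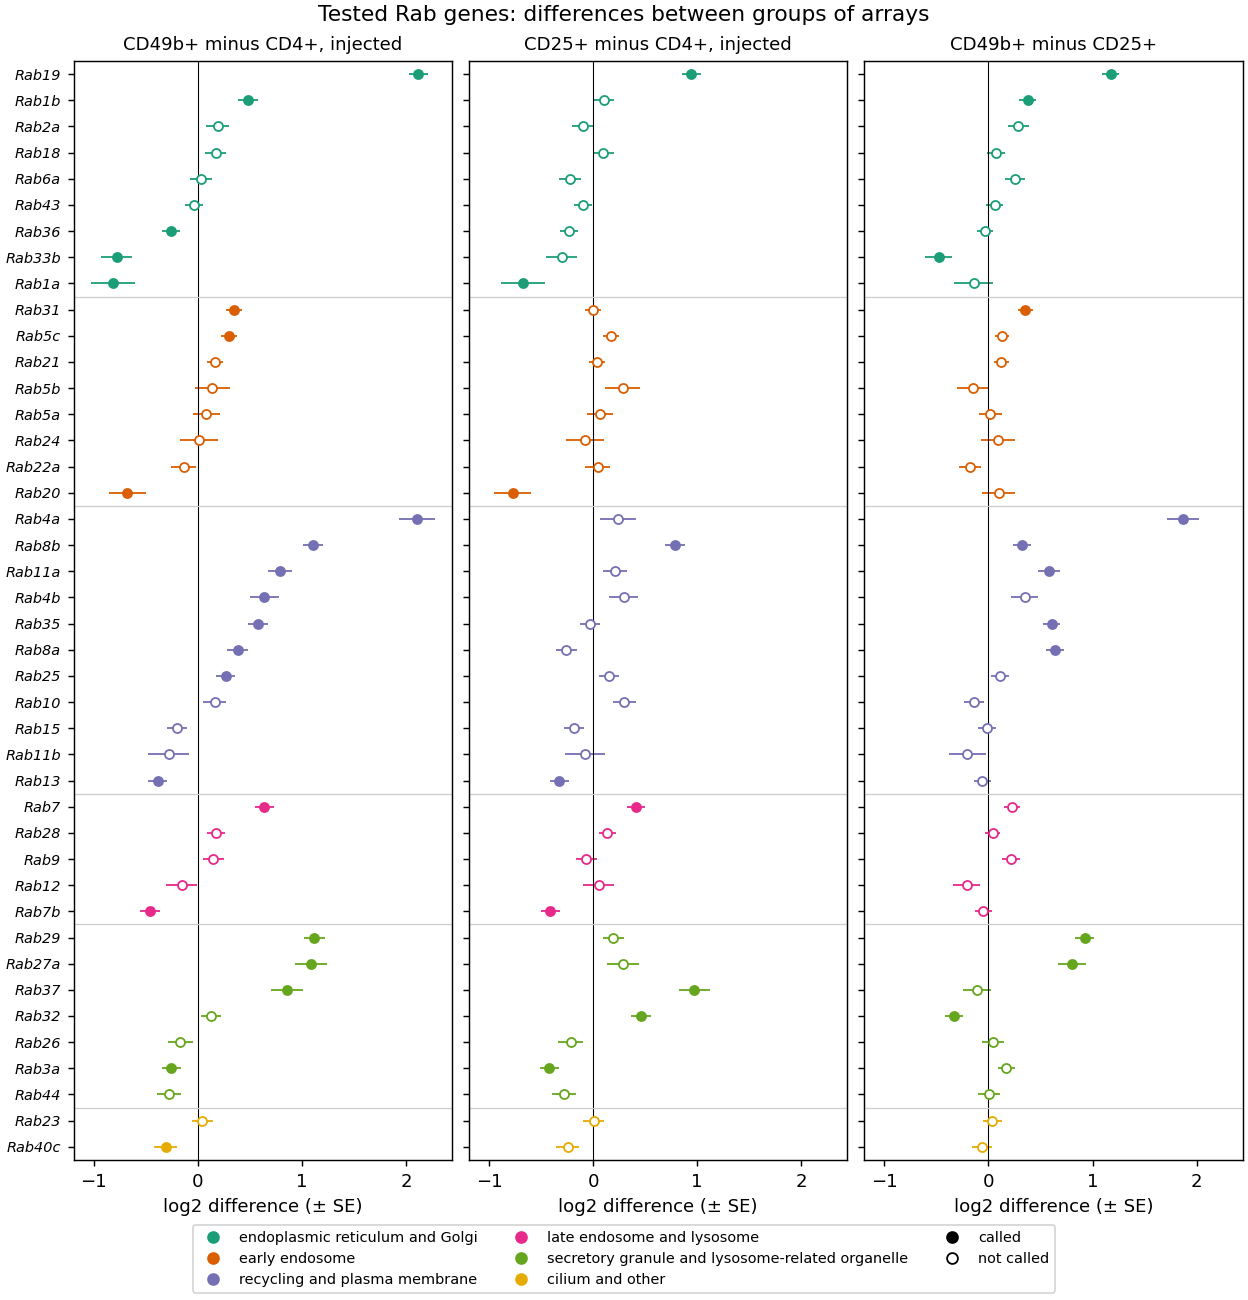
Log2 difference ± SE of each of the 42 tested Rab genes (rows, coloured by role) in the 3 comparisons that involve a sorted subset; filled points were called at an adjusted p under 0.05. Rab19 and Rab4a stand furthest to the right in CD49b+ against CD4+ cells, at 2.12 and 2.10, while Rab4a is at 0.24 and not called in CD25+ cells.

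**Figure D2:**
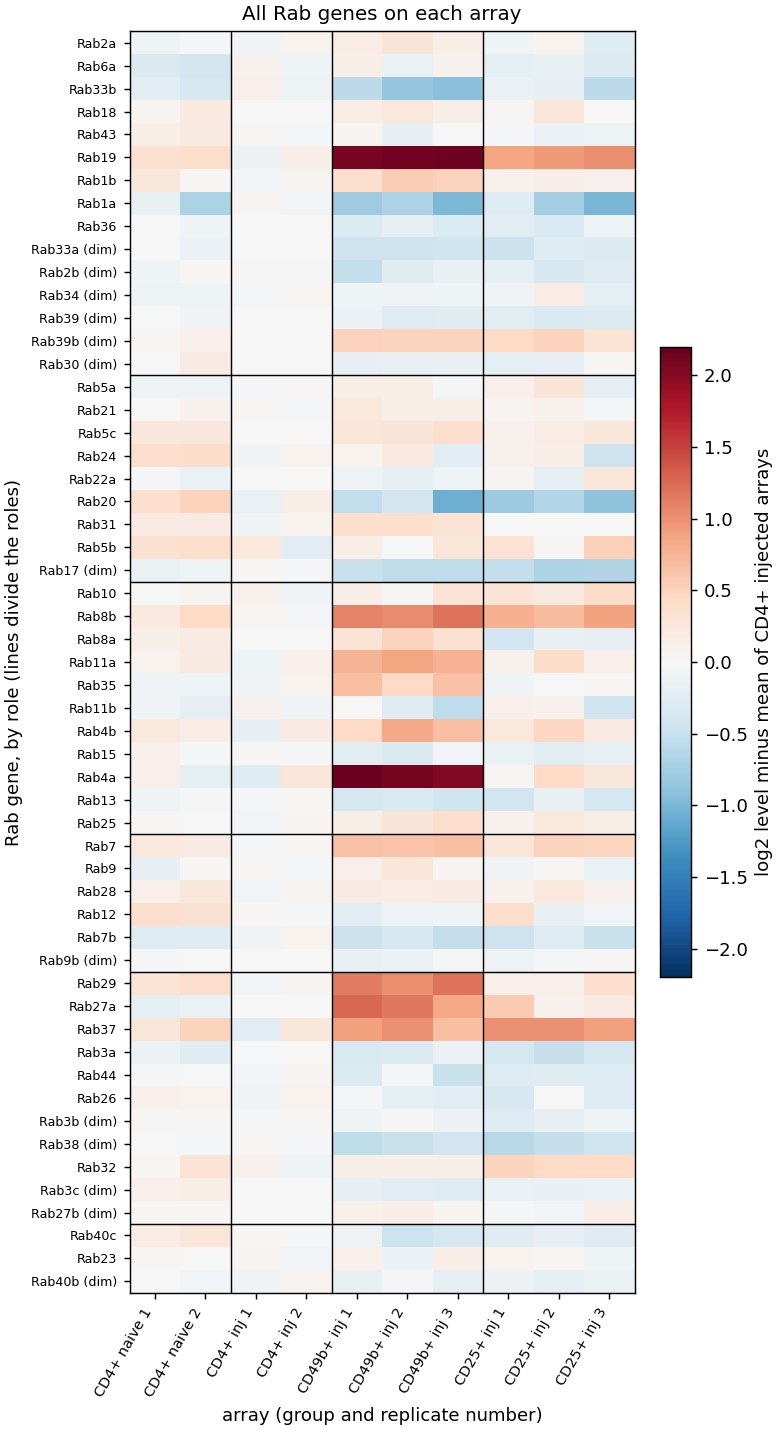
Level of all 55 Rab genes (rows, by role, dim genes marked) on each of the 10 arrays (columns), as the log2 difference from the mean of the CD4+ arrays of injected mice. Rab19 and Rab4a are the darkest red rows on the 3 CD49b+ arrays, and Rab8b and Rab37 are red on the arrays of both subsets.

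The sequences upstream of the genes that were at least 2-fold higher in CD49b+ cells are shown because these members were higher together in the same cells. They are the 250 bases before each start in RefSeq (mouse build GRCm38.p6), 5′ to 3′ on the strand of the gene, with capitals where a searched motif matched on either strand. Windows were kept for 44 of the 55 genes, and no entry was found for Rab4a or Rab37 in RefSeq's table. The Rab windows left out a chromosome that stayed in the set of all windows. Some of the genes without a window may thus be in that table. Rab19 lies at chr6:39381103-39381352 on the plus strand, Rab29 at chr1:131867027-131867276 on the plus strand and Rab8b at chr9:66919706-66919955 on the minus strand. Rab27a has 2 starts, with windows at chr9:73044560-73044809 and chr9:73063898-73064147 on the plus strand, and the arrays do not tell which was used.
Rab19: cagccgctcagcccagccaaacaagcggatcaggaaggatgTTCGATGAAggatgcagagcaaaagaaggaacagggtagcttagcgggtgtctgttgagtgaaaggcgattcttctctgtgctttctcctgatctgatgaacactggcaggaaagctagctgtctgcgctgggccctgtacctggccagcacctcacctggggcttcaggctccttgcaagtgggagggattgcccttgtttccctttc
Rab29: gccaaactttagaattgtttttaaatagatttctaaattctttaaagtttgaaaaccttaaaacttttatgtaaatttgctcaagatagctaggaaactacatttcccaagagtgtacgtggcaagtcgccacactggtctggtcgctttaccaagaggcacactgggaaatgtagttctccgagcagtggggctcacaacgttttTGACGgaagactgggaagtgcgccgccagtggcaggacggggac
Rab8b: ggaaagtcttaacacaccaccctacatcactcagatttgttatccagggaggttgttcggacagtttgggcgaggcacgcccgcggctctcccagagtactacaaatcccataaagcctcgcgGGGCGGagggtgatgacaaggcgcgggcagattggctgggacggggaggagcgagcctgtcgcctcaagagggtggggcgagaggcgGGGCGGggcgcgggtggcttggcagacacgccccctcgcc
Rab27a, first start: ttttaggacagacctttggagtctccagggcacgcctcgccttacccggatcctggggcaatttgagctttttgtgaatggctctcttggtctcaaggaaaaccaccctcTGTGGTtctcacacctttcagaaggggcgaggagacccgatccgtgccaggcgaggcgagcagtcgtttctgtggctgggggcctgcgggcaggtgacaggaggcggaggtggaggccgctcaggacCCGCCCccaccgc
Rab27a, second start: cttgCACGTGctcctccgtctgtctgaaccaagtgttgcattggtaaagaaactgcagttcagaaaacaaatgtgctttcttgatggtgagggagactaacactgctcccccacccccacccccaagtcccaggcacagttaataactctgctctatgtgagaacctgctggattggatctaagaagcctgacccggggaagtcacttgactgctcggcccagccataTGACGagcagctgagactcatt

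The 8 motifs searched were GGGCGG (Sp/KLF), CCGGAAG (ETS), TGACG (CRE half-site), TGANTCA (AP-1), TTCNNNGAA (STAT), TGTTTAC (FOX), TGTGGT (RUNX) and CACGTG (E-box). Rab19 held 1 STAT-type match, a motif found in 7.02% of all 32851 promoter windows and in 8.93% of the 56 Rab windows. Rab29 held 1 CRE half-site and Rab8b held 2 Sp/KLF matches. The first Rab27a window held 1 RUNX and 1 Sp/KLF match, and the second 1 E-box and 1 CRE half-site. No motif was common to all 5 windows. Across the Rab windows as a whole, Sp/KLF matches were present in 64.3% and CRE half-sites in 41.1%, beside 32.7% and 17.8% of all windows, and the median GC content was 59.8% beside 52.4%. A match describes these letters and is not a site of binding.

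The recycling and plasma membrane Rabs held 7 of the 15 increases in CD49b+ cells, more than any other role. All 11 were tested, and 7 were higher (Rab4a, Rab8b, Rab11a, Rab4b, Rab35, Rab8a and Rab25) and 1 lower (Rab13) than in CD4+ cells of injected mice, with a median of 0.38. Of the 7, Rab25 was tested only through the subset arrays, where it is high. Over all genes 29.9% were higher and 23.5% lower in this comparison. In CD25+ cells 1 was higher (Rab8b) and 1 lower (Rab13), beside 20.8% and 17.8% of all genes, and in CD49b+ against CD25+ cells 5 were higher and 0 lower, beside 17.5% and 12.4%.

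Rab4a drives the fast return of endocytosed receptors from early endosomes to the surface. Its level was 5.84 and 6.38 on the CD4+ arrays of injected mice, 8.28, 8.21 and 8.14 on the CD49b+ arrays, 6.13, 6.54 and 6.36 on the CD25+ arrays, and 6.22 and 5.91 in naive mice. All 3 CD49b+ arrays stood above every other array, and the other 3 groups overlapped. The difference was 2.10 ± 0.17 against CD4+ cells (adjusted p = 1.09e-05) and 1.87 ± 0.15 against CD25+ cells (adjusted p = 1.94e-05), while CD25+ differed from CD4+ cells by 0.24 ± 0.17 (adjusted p = 0.307). A second probe set of Rab4a gave 1.71 against CD4+ cells and 1.76 against CD25+ cells, and -0.04 for CD25+ against CD4+ cells. Its paralogue Rab4b read 7.13 and 7.47 on the CD4+ arrays, 7.74, 8.13 and 7.95 on the CD49b+ arrays, and 7.54, 7.76 and 7.48 on the CD25+ arrays. The CD49b+ arrays stood above the CD4+ ones but overlapped with CD25+, and the differences were 0.64 ± 0.14 (adjusted p = 0.00404) against CD4+ and 0.35 ± 0.13 (adjusted p = 0.0654) against CD25+ cells. With the replicate number as a block the latter was called (0.35 ± 0.10, adjusted p = 0.024).

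Rab8b, which with Rab8a carries vesicles to the plasma membrane, was higher in both subsets. It read 10.02 and 9.94 on the CD4+ arrays, 11.07, 11.02 and 11.18 in CD49b+ cells, 10.76, 10.68 and 10.87 in CD25+ cells, and 10.20 and 10.41 in naive mice. The groups formed separate steps with no overlap between any of the 4. The difference from CD4+ cells was 1.11 ± 0.10 (adjusted p = 1.56e-05) in CD49b+ and 0.79 ± 0.10 (adjusted p = 0.000209) in CD25+ cells, and CD49b+ exceeded CD25+ cells by 0.32 ± 0.09 (adjusted p = 0.019). The last 2 of these calls were lost when the gene was read as the mean of all its probe sets, the others being dim (0.23, adjusted p = 0.0636, and 0.18, adjusted p = 0.104). The last was lost as well without CD49b+ replicate 3 (0.28, adjusted p = 0.0703), CD25+ replicate 1 (0.32, adjusted p = 0.0521) or CD25+ replicate 2 (0.28, adjusted p = 0.0595). Rab8a was at 8.86 and 8.87 on the CD4+ arrays, 9.17, 9.37 and 9.20 in CD49b+ and 8.44, 8.70 and 8.67 in CD25+ cells. Here the CD25+ arrays were the lowest and the CD49b+ arrays the highest of the 3 groups, and CD49b+ exceeded CD25+ cells by 0.64 ± 0.09 (adjusted p = 0.000554). The call against CD4+ cells (0.38 ± 0.10, adjusted p = 0.00997) was lost after quantile normalization (0.26, adjusted p = 0.0584) and if CD4+ replicate 1 was left out (0.38, adjusted p = 0.0533). Averaging its probe sets, the others being dim, ended it as well (0.02, adjusted p = 0.817).

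Rab11a marks the recycling endosome, from which receptors return slowly. On the CD4+ arrays it read 8.25 and 8.49, on the CD49b+ arrays 9.11, 9.23 and 9.13, and on the CD25+ arrays 8.47, 8.77 and 8.48. The CD49b+ arrays were above all the others, whereas CD25+ and CD4+ arrays overlapped. The difference was 0.79 ± 0.12 (adjusted p = 0.000372) against CD4+ and 0.58 ± 0.10 (adjusted p = 0.00221) against CD25+ cells. Its other tested probe set gave 0.25 and 0.09 and was not called in either comparison, and averaging them ended the call against CD25+ cells (0.34, adjusted p = 0.0867). Rab11b read 7.76 and 7.58 on the CD4+ arrays, 7.68, 7.39 and 7.11 in CD49b+ and 7.78, 7.77 and 7.22 in CD25+ cells, groups that overlapped and were not called (-0.28 ± 0.19 and -0.08 ± 0.19 against CD4+ cells).

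Rab35 acts in fast recycling and at the T cell synapse. The values were 7.65 and 7.82 in CD4+ cells, 8.40, 8.17 and 8.38 in CD49b+ cells, and 7.64, 7.73 and 7.76 in CD25+ cells. Only the CD49b+ arrays stood apart, by 0.58 ± 0.10 (adjusted p = 0.000776) from CD4+ and by 0.61 ± 0.09 (adjusted p = 0.000569) from CD25+ cells. Rab13, known from epithelial junctions, was near the array median, at 4.83 and 4.89 on the CD4+ arrays against 4.42 to 4.52 in CD49b+ and 4.43 to 4.69 in CD25+ cells. These lower values (-0.39 ± 0.09, adjusted p = 0.00579, and -0.32 ± 0.09, adjusted p = 0.0189) were as small as -0.19 and -0.17 after median centring and then not called (adjusted p = 0.0919 and 0.159), and quantile normalization ended both calls too (adjusted p = 0.0852 and 0.174). The call of Rab13 in CD25+ cells was lost as well without CD4+ replicate 1 (-0.35, adjusted p = 0.0629), CD4+ replicate 2 (-0.30, adjusted p = 0.105) or CD25+ replicate 3 (-0.29, adjusted p = 0.0527), and with only the arrays compared (adjusted p = 0.0715). Rab13 needed CD4+ arrays, where it is high, to pass the filter for dim genes. Rab25, an epithelial relative of Rab11 also near the array median, was 0.27 ± 0.09 above the CD4+ level in CD49b+ cells (adjusted p = 0.0373), a call lost without any 1 of 6 arrays, both naive ones included, with adjusted p from 0.0544 to 0.216. Only subset arrays lay above their medians for Rab25. It was thus tested only through the groups where it is high, which limits what its call can show. Rab10 and Rab15 were not called.

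**Figure D3:**
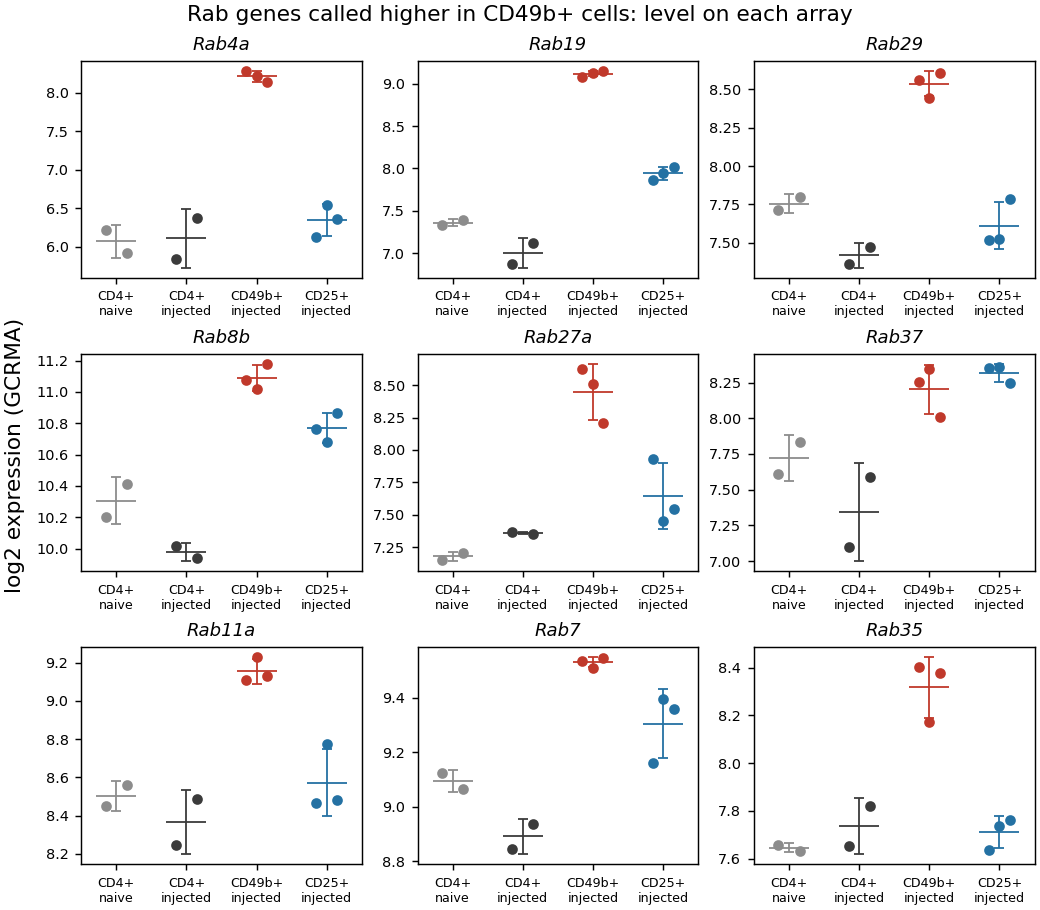
Log2 level of 9 Rab genes with a called increase in CD49b+ cells, on each array (points) with group mean and SD (bars), for the 4 groups; each panel has its own axis, which does not start at 0. In the panels of Rab4a, Rab29, Rab27a, Rab11a and Rab35 only the CD49b+ arrays stand above all the others, whereas in those of Rab19, Rab8b, Rab7 and Rab37 the CD25+ arrays too stand above both CD4+ groups.

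Among the Rabs of secretory granules and lysosome-related organelles, 3 of 7 tested were higher and 1 lower in CD49b+ than in CD4+ cells (29.9% and 23.5% of all genes). Rab27a, which docks cytotoxic granules at the plasma membrane, read 7.37 and 7.35 in CD4+ cells of injected mice, 8.62, 8.51 and 8.21 in CD49b+ cells, 7.93, 7.45 and 7.54 in CD25+ cells, and 7.15 and 7.21 in naive mice. The CD49b+ arrays lay above all others, and of the CD25+ arrays replicate 1 was the highest. The difference was 1.09 ± 0.15 (adjusted p = 0.000309) against CD4+ and 0.80 ± 0.14 (adjusted p = 0.00183) against CD25+ cells, and 0.28 ± 0.15 (adjusted p = 0.173) between CD25+ and CD4+ cells. The 2 other tested probe sets of Rab27a gave 0.59 and 0.53 against CD4+ cells and 0.70 and 0.61 against CD25+ cells. All were called, but 1 of these probe sets was dim, at 3.95 in CD4+ cells of injected mice and 3.84 in CD25+ cells, under the array medians. Rab27b, its close relative, was dim on every array, at 3.69 to 3.91.

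Rab29, which acts at the Golgi and on lysosomes, was also highest in CD49b+ cells. It read 7.36 and 7.47 on the CD4+ arrays, 8.56, 8.44 and 8.61 in CD49b+, 7.52, 7.53 and 7.79 in CD25+ cells, and 7.71 and 7.80 in naive mice. The CD49b+ arrays did not overlap with any other group, while CD25+ and naive arrays did overlap. The differences were 1.12 ± 0.10 (adjusted p = 2.15e-05) from CD4+ and 0.93 ± 0.09 (adjusted p = 6.18e-05) from CD25+ cells. Rab37, known from mast cell granules, differed in pattern, at 7.10 and 7.59 on the CD4+ arrays, 8.25, 8.35 and 8.01 in CD49b+ and 8.35, 8.36 and 8.24 in CD25+ cells. Both subsets lay above the CD4+ arrays and overlapped each other, with 0.86 ± 0.15 (adjusted p = 0.00112) in CD49b+, 0.97 ± 0.15 (adjusted p = 0.000844) in CD25+ and -0.11 ± 0.13 (adjusted p = 0.578) between them. The second Rab37 probe set gave 0.89 and 0.65 against CD4+ cells, both called.

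Rab32, which serves melanosomes and other lysosome-related organelles, was the 1 Rab gene higher in CD25+ but not called in CD49b+ cells against CD4+ cells. Its values were 4.47 and 4.28 in CD4+ cells, 4.50, 4.50 and 4.52 in CD49b+ cells and 4.86, 4.82 and 4.82 in CD25+ cells. Only the 3 CD25+ arrays lay above their array medians, and not far above. Rab32 was thus tested only through the group where it is high, which limits what its calls can show. CD25+ cells exceeded CD4+ cells by 0.46 ± 0.09 (adjusted p = 0.00403), and CD49b+ cells lay 0.33 below CD25+ cells (-0.33 ± 0.08, adjusted p = 0.015). Rab3a, the Rab of synaptic vesicles, was at 5.38 and 5.37 in CD4+ cells, 5.04, 5.08 and 5.25 in CD49b+ and 5.0, 4.86 and 5.0 in CD25+ cells. Both subsets lay below the CD4+ arrays, by -0.25 ± 0.09 (adjusted p = 0.0394) and -0.42 ± 0.09 (adjusted p = 0.00516). The Rab3a call in CD49b+ cells was lost without any 1 of 6 arrays, again including both naive ones, with adjusted p from 0.0509 to 0.133. It was lost also after centring (-0.06, adjusted p = 0.591) and quantile normalization (-0.10, adjusted p = 0.399). Rab26 and Rab44 were not called.

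Among markers of natural killer cells, Gzma, Ncr1 and Klrk1 averaged higher in both subsets than in CD4+ cells, Eomes averaged lower, and Klrb1c and Klra8 were dim. The mean level of the 6 listed genes was 4.69 to 4.71 on the CD4+ arrays of injected mice, 5.28 to 5.55 on the CD49b+ arrays and 4.91 to 5.02 on the CD25+ arrays, and 4 of the 6 lay above the array median in each subset. Gzma, a granzyme of cytotoxic granules, averaged 4.24, 8.22 and 5.72 in these groups, Ncr1 4.47, 5.12 and 5.20, and Klrk1 5.10, 5.64 and 5.31. Klrb1c stayed at 4.53 to 4.58 and Klra8 at 3.27 to 3.40, both under the array medians, and Eomes was at 6.46, 5.55 and 5.75. Without Gzma the mean of the other 5 was 4.78 to 4.80, 4.79 to 4.95 and 4.79 to 4.84 on the arrays of the 3 groups. The part of such cells in the Rab27a and Rab29 differences was not tested.

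Of the endoplasmic reticulum and Golgi Rabs, 9 of 15 were tested, and 2 were higher and 3 lower in CD49b+ than in CD4+ cells, again beside 29.9% and 23.5% of all genes. Rab19 had the greatest difference of any Rab gene. It read 6.88 and 7.12 on the CD4+ arrays of injected mice, 9.08, 9.13 and 9.14 in CD49b+ cells, 7.87, 7.94 and 8.02 in CD25+ cells, and 7.33 and 7.39 in naive mice. The 4 groups did not overlap, with CD49b+ at the top and CD25+ second. The difference from CD4+ cells was 2.12 ± 0.09 (adjusted p = 2.28e-07) in CD49b+ and 0.94 ± 0.09 (adjusted p = 5.15e-05) in CD25+ cells, and the subsets differed by 1.18 ± 0.08 (adjusted p = 6.26e-06). Rab1b, which works between the endoplasmic reticulum and the Golgi, was 0.48 ± 0.10 above CD4+ cells (adjusted p = 0.0022) and 0.38 ± 0.09 above CD25+ cells (adjusted p = 0.00837) in CD49b+ cells.

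Rab33b, a Golgi Rab with a part in autophagy, fell below the CD4+ level in CD49b+ cells. Its values were 8.94 and 8.73 in CD4+ cells, 8.26, 7.99 and 7.92 in CD49b+ cells and 8.68, 8.66 and 8.27 in CD25+ cells. The CD49b+ arrays were the lowest, and CD25+ replicate 3 came close to them. The differences were -0.78 ± 0.15 (adjusted p = 0.00183) from CD4+ cells and -0.48 ± 0.13 (adjusted p = 0.022) from CD25+ cells. The second call was lost without CD49b+ replicate 2 or 3 or CD25+ replicate 1 or 2, with differences from -0.44 to -0.40 and adjusted p from 0.0671 to 0.0833. Rab33b was the lower call not close to the array median that held under every alternative run against CD4+ cells.

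Rab1a, the relative of Rab1b, was at 5.70 and 5.57 on the CD4+ arrays, 4.85, 4.95 and 4.64 in CD49b+ and 5.35, 4.89 and 4.63 in CD25+ cells, and 5.47 and 4.94 in naive mice. Both subsets lay below the CD4+ arrays of injected mice but overlapped with the naive arrays. The differences were -0.82 ± 0.21 (adjusted p = 0.00896) and -0.67 ± 0.21 (adjusted p = 0.0297), read from 1 probe set within 1 log2 unit of the array median. Without CD4+ replicate 1 both calls were lost (adjusted p = 0.059 and 0.14), and the CD25+ call also without CD4+ replicate 2 (0.0794), CD25+ replicate 2 (0.0683) or 3 (0.079) and after centring (0.0719). Rab36, also of the Golgi, differed by -0.26 ± 0.09 (adjusted p = 0.0287) in CD49b+ cells, a call lost after centring (-0.07, adjusted p = 0.527), after quantile normalization (-0.11, adjusted p = 0.29) and without CD4+ replicate 1 or 2 or CD49b+ replicate 1 or 3 (adjusted p from 0.0714 to 0.123). A second probe set of Rab36 gave -1.09 in CD49b+ and -0.98 in CD25+ cells, both called. Rab2a, Rab6a, Rab18 and Rab43 were not called.

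Early endosome Rabs were mostly level. The 3 Rab5 genes, which fuse early endosomes, differed by 0.08 ± 0.13 (Rab5a), 0.14 ± 0.17 (Rab5b) and 0.30 ± 0.08 (Rab5c) between CD49b+ and CD4+ cells. Of these, Rab5c was called (adjusted p = 0.00916), at 8.66 and 8.66 on the CD4+ arrays, 8.92, 8.94 and 9.02 in CD49b+, 8.76, 8.82 and 8.92 in CD25+ cells and 8.91 and 8.90 in naive mice. The 2 CD4+ arrays of injected mice were its lowest, and after quantile normalization the call was lost (0.17, adjusted p = 0.119). Rab5a read 9.48 and 9.54 on the CD4+ arrays, 9.63, 9.65 and 9.49 in CD49b+ and 9.61, 9.79 and 9.31 in CD25+ cells, with overlap throughout. Rab5b, at 4.60 to 5.35 over all arrays, overlapped likewise, and none of the 3 was called in CD25+ cells. Rab31, which works between the trans-Golgi and endosomes, was in CD49b+ cells 0.35 ± 0.08 above the CD4+ level (adjusted p = 0.00373) and 0.36 ± 0.07 above the CD25+ level (adjusted p = 0.00351), while CD25+ and CD4+ cells differed by -0.00 ± 0.08 (adjusted p = 0.973), at 5.30 to 5.37 on the CD49b+ arrays and 4.92 to 5.08 on the others of injected mice.

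Rab20, known from phagosomes of macrophages, was the early endosome gene that fell. It read 4.93 and 5.22 on the CD4+ arrays, 4.54, 4.67 and 4.0 in CD49b+, 4.28, 4.43 and 4.20 in CD25+ cells, and 5.45 and 5.59 in naive mice. Naive arrays were the highest and the subsets the lowest, with means below their array medians. Of the subset arrays only CD49b+ replicate 2 lay above its median. Rab20 thus passed the filter for dim genes through the CD4+ arrays, where it is high, which limits what its calls can show. The differences from CD4+ cells were -0.68 ± 0.18 (adjusted p = 0.0107) and -0.77 ± 0.18 (adjusted p = 0.00788), and both were lost without CD4+ replicate 2 (-0.53, adjusted p = 0.0895, and -0.63, adjusted p = 0.07). The mean level of 10 myeloid and dendritic markers was also highest in naive arrays (6.24 to 6.47) and was lowest in CD49b+ arrays (5.08 to 5.28). Injected CD4+ arrays (5.63 to 5.76) and CD25+ arrays (5.45 to 5.69) overlapped. In each group 7 to 8 of the 10 lay above the array median. Itgam and Lyz2 were below it on average in every group (3.55 to 3.76 and 3.72 to 4.17). Some members went the other way. Cst3 averaged 8.31 in injected CD4+, 9.47 in CD49b+ and 9.10 in CD25+ cells. Fcer1g (7.20 against 5.30) and Cybb (6.52 against 5.92) were higher in CD25+ than in injected CD4+ cells. The part of myeloid and dendritic cells in the Rab20 difference was not tested. Rab21, Rab22a and Rab24 were not called.

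Late endosome and lysosome Rabs split. Rab7, which takes late endosomes to lysosomes, read 8.85 and 8.94 on the CD4+ arrays, 9.54, 9.51 and 9.55 in CD49b+, 9.16, 9.39 and 9.36 in CD25+ cells, and 9.12 and 9.07 in naive mice. The 3 groups of injected mice formed separate steps. Rab7 was 0.64 ± 0.09 higher in CD49b+ (adjusted p = 0.000258) and 0.41 ± 0.09 higher in CD25+ (adjusted p = 0.00479) than in CD4+ cells, and the subsets differed by 0.23 ± 0.08 (adjusted p = 0.055). Its second probe set gave 0.51, called, and 0.08, not called, and with the mean of both the CD25+ call was lost (0.25, adjusted p = 0.053). Rab7b, a distinct gene that acts between endosomes and the Golgi, was lower in both subsets, at 5.21 and 5.37 in CD4+ cells, 4.81, 4.91 and 4.77 in CD49b+ and 4.83, 5.01 and 4.79 in CD25+ cells, and 5.02 and 5.01 in naive mice. The CD4+ arrays of injected mice were its highest, the differences were -0.46 ± 0.09 (adjusted p = 0.00256) and -0.41 ± 0.09 (adjusted p = 0.00687), and leaving out CD4+ replicate 2 ended the CD25+ call (-0.33, adjusted p = 0.0675). Rab9, Rab12 and Rab28 were not called. Of the remaining Rabs, Rab23, a regulator of hedgehog signalling in cilia, was not called, and Rab40c was 0.31 lower in CD49b+ cells (-0.31 ± 0.11, adjusted p = 0.0336), a call lost after centring (-0.12, adjusted p = 0.381), with only the arrays compared (adjusted p = 0.0784) and without CD4+ replicate 1 or 2 or CD49b+ replicate 2 or 3 (adjusted p from 0.081 to 0.154).

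The rule on levels also named 6 genes, each the brightest probe set of its role over all arrays: Rab8b (10.61), Rab7 (9.25), Rab5a (9.53), Rab2a (10.30), Rab40c (8.03) and Rab37 (7.97). The dimmest were Rab13 (4.63), Rab9b (3.42), Rab17 (4.43), Rab30 (3.26), Rab40b (3.66) and Rab27b (3.80). These mean log2 levels depend on the probes, so no order of abundance between genes is read from them. Rab2a, an endoplasmic reticulum and Golgi Rab, read 10.21 and 10.37 on the CD4+ arrays, 10.45, 10.57 and 10.42 in CD49b+ and 10.19, 10.36 and 10.03 in CD25+ cells. Its CD49b+ arrays were the highest, but the differences, 0.19 ± 0.11 from CD4+ and 0.29 ± 0.10 from CD25+ cells, were not called (adjusted p = 0.167 and 0.0516), though both were after centring (0.38, adjusted p = 0.0135, and 0.32, adjusted p = 0.0321). The replicate block likewise called the difference from CD25+ cells (0.29 ± 0.07, adjusted p = 0.0116). In all, 24 of the 42 tested Rab genes were called in at least 1 comparison and 18 in none. The share of all genes called in at least 1 comparison is not given here, so nothing about the Rab genes is read from this count. The 13 dim genes were Rab2b, Rab3b, Rab3c, Rab9b, Rab17, Rab27b, Rab30, Rab33a, Rab34, Rab38, Rab39, Rab39b and Rab40b.

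Of the called Rab genes, 6 of the 23 in CD49b+ against CD4+ cells had another tested probe set, and 5 of the 6 had one called the same way. Probe set p-values were adjusted over all probe sets tested. In CD25+ against CD4+ cells this was 1 of 2, and in CD49b+ against CD25+ cells 2 of 3, and 0 were called in the opposite direction. Of the genes not called, Rab2a had a probe set called lower in CD49b+ cells (-0.60), while Rab21 (0.52), Rab10 (0.30) and Rab11b (0.53) each had one called higher, so that for these genes the result depends on the probe set.

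**Figure D4:**
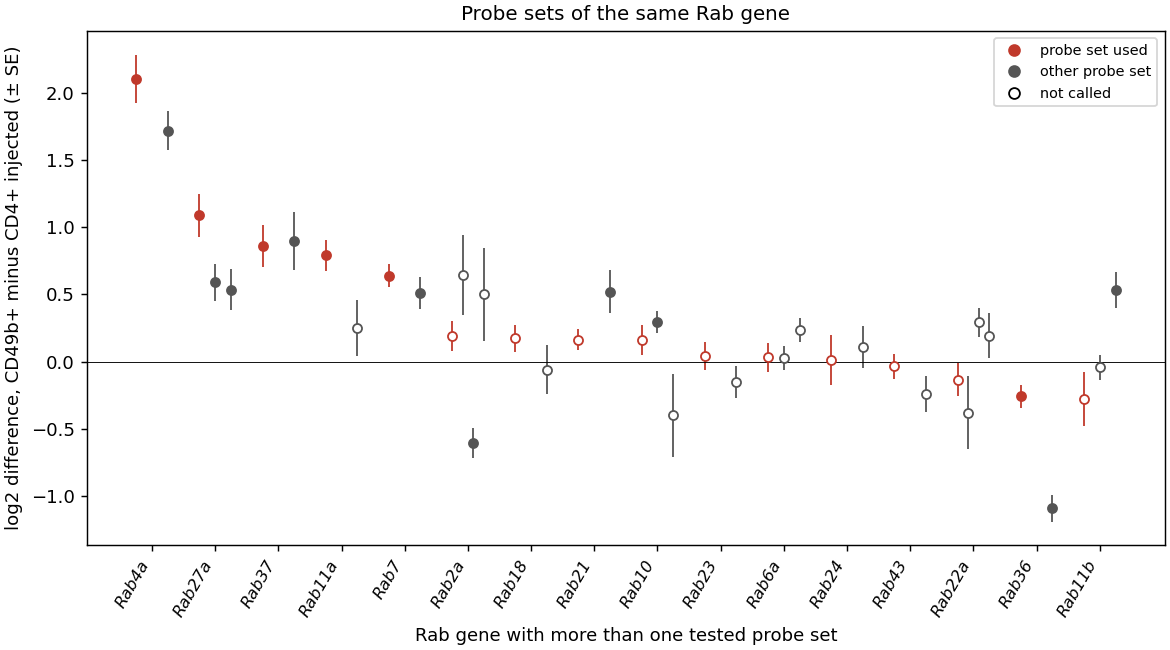
Log2 difference ± SE between CD49b+ and CD4+ cells of injected mice for every tested probe set of the 16 Rab genes with more than 1; red points are the probe sets used, grey ones the others, and open points were not called. The probe sets of Rab4a, Rab27a, Rab37 and Rab7 lie on the same side of 0, while those of Rab2a lie on both sides.

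The proteins that switch, escort and read Rab GTPases were taken from 5 lists with 188 symbols, of which 170 were on the array and 148 were tested. In CD49b+ against CD4+ cells 52 were higher and 26 lower (52.7% called, beside 53.4% of all genes), with a median of 0.16. In CD25+ against CD4+ cells 39 were higher and 16 lower (37.2%, beside 38.6%), with a median of 0.10, and in CD49b+ against CD25+ cells 33 were higher and 23 lower (37.8%, beside 29.9%), with a median of 0.02. Effectors and tethers were called higher in 20 and lower in 5 of 51 in CD49b+ cells, and SNAREs and fusion proteins higher in 13 and lower in 5 of 36, against CD4+ cells, where 29.9% of all genes were higher and 23.5% lower. GTPase-activating proteins were called in both directions, 8 higher and 9 lower of 30.

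Of the 4 tested synaptotagmin-like proteins, which link Rab27 to the plasma membrane, Sytl1, Sytl2 and Sytl3 were higher in CD49b+ cells and Sytl4 was not called (0.14 ± 0.11, adjusted p = 0.274), and Sytl2 had the greatest increase of the 5 lists. It read 6.65 and 6.88 on the CD4+ arrays, 9.61, 9.44 and 9.44 in CD49b+ and 7.70, 7.90 and 7.86 in CD25+ cells. Sytl1 read 4.98 and 5.20, then 7.31, 7.05 and 7.02, then 6.40, 6.37 and 6.09 in the same order of groups. Both were highest in CD49b+ cells, intermediate in CD25+ cells, and without overlap. The differences from CD4+ cells were 2.73 ± 0.12 and 2.04 ± 0.13 in CD49b+ cells (adjusted p = 2.96e-07 and 1.86e-06) and 1.06 ± 0.12 and 1.19 ± 0.13 in CD25+ cells (adjusted p = 0.000146 and 8.84e-05). Sytl3, at 4.87 and 5.11 on the CD4+ arrays, 6.73, 6.81 and 6.78 in CD49b+ and 5.01, 5.06 and 5.20 in CD25+ cells, stood apart in CD49b+ cells, by 1.78 ± 0.10 (adjusted p = 9.28e-07) from CD4+ and 1.68 ± 0.09 (adjusted p = 1.25e-06) from CD25+ cells. Ehbp1l1, an effector of Rab8, was 1.75 ± 0.10 (adjusted p = 1.17e-06) and 0.70 ± 0.10 (adjusted p = 0.000511) above CD4+ cells in the subsets. Gzma, given above, was highest in the same cells, and the part of natural killer cells in the Sytl differences was not tested.

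Other members went the other way between the subsets. Stx11, a SNARE of cytotoxic granule fusion, read 6.50 and 6.66 on the CD4+ arrays, 7.96, 7.87 and 7.82 in CD49b+ and 9.10, 8.87 and 8.80 in CD25+ cells, and 7.39 and 7.57 in naive mice. The CD25+ arrays were its highest and the CD4+ arrays of injected mice its lowest. Stx11 was 1.30 ± 0.11 (adjusted p = 1.33e-05) higher in CD49b+ and 2.34 ± 0.11 (adjusted p = 7.02e-07) higher in CD25+ than in CD4+ cells, and CD49b+ lay below CD25+ cells (-1.04 ± 0.10, adjusted p = 4.71e-05). Eea1, a tether that Rab5 recruits to early endosomes, read 5.06 and 5.04 on the CD4+ arrays, 6.66, 6.37 and 7.09 in CD49b+, 7.49, 7.17 and 7.45 in CD25+ cells and 6.26 and 7.08 in naive mice. It too was lowest on the CD4+ arrays of injected mice, by 1.65 ± 0.25 (adjusted p = 0.000433) from CD49b+ and 2.32 ± 0.25 (adjusted p = 9.03e-05) from CD25+ cells. Rab11fip2, an effector of Rab11, was at 6.18 and 6.02 in CD4+ cells, 6.21, 5.81 and 5.42 in CD49b+ and 8.15, 8.22 and 7.20 in CD25+ cells, and so was high in CD25+ cells alone among these 3 groups. The differences were 1.75 ± 0.30 (adjusted p = 0.00145) for CD25+ against CD4+ and -2.04 ± 0.27 (adjusted p = 0.000349) for CD49b+ against CD25+ cells.

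Between CD4+ cells of injected and naive mice, Eea1 (-1.62 ± 0.27, adjusted p = 0.0209) and Stx11 (-0.90 ± 0.12, adjusted p = 0.00829) were the 2 of 148 called, both lower (1.35%, beside 1.39% of all genes). Each call was lost in the fit with only the arrays compared (adjusted p = 0.1 and 0.0574), without naive replicate 2 (-1.21, adjusted p = 0.217, and -0.81, adjusted p = 0.136) and without CD4+ replicate 1 (adjusted p = 0.112 and 0.0735). That of Eea1 was lost also without CD4+ replicate 2 (adjusted p = 0.0921).

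Among exchange factors, 9 were higher and 6 lower of 26 in CD49b+ cells, beside 29.9% and 23.5% of all genes, and 6 and 3 in CD25+ cells, beside 20.8% and 17.8%. Als2cl, related to the Rab5 exchange factor alsin, had the greatest decrease of the 5 lists, from 9.57 and 9.83 on the CD4+ arrays to 6.88, 6.60 and 6.75 in CD49b+ and 7.50, 7.29 and 7.23 in CD25+ cells. Both subsets lay below the CD4+ arrays of both kinds of mice without overlap, since the naive ones read 9.57 and 9.27. The differences were -2.96 ± 0.13 (adjusted p = 3.3e-07) and -2.36 ± 0.13 (adjusted p = 2.18e-06). Rabgef1, an exchange factor of Rab5, was higher in CD49b+ (1.23 ± 0.16, adjusted p = 0.000181) and CD25+ cells (0.85 ± 0.16, adjusted p = 0.00246), the latter lost with the mean of its probe sets (0.23, adjusted p = 0.0766). Mon1b, part of the exchange factor of Rab7, was higher by 1.21 ± 0.14 (adjusted p = 9.03e-05) and 0.74 ± 0.14 (adjusted p = 0.00267). Dennd3, an exchange factor of Rab12, was lower in CD49b+ than in CD25+ cells (-1.34 ± 0.15, adjusted p = 0.000143).

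The GTPase-activating proteins Tbc1d9 and Tbc1d8 were lower in both subsets, by -1.24 ± 0.10 (adjusted p = 1.14e-05) and -1.04 ± 0.18 (adjusted p = 0.00115) in CD49b+ cells and by -1.15 ± 0.10 (adjusted p = 3.31e-05) and -0.79 ± 0.18 (adjusted p = 0.00758) in CD25+ cells. Tbc1d9 fell from 4.57 and 4.64 on the CD4+ arrays of injected mice to 3.31 to 3.55 in the subsets, all of them below their array medians. Only the naive arrays, at 4.92 and 5.21, lay above theirs, and Tbc1d9 was tested through them alone. Tbc1d8 averaged 5.12 in CD4+ cells of injected mice, 4.08 in CD49b+ cells and 4.33 in CD25+ cells. Every subset array lay below its median for Tbc1d8 too. Tbc1d8 was thus tested only through the CD4+ arrays of naive and injected mice, where it is high. This limits what the calls of both genes can show. Of the 5 tested genes for prenylation and recycling of Rab proteins, Chm (Rab escort protein 1) and Gdi2 (a dissociation inhibitor) were higher in CD49b+ than CD4+ cells, by 0.56 ± 0.11 (adjusted p = 0.00276) and 0.36 ± 0.08 (adjusted p = 0.0058). Rabggtb, a subunit of the enzyme that prenylates Rabs, was lower by -0.38 ± 0.14 (adjusted p = 0.0454) and, in CD25+ cells, -0.50 ± 0.14 (adjusted p = 0.0193). In CD49b+ cells that call was lost when any 1 of 8 arrays was left out (adjusted p from 0.0519 to 0.196), and in CD25+ cells without CD4+ replicate 1 or 2 or CD25+ replicate 3 (adjusted p from 0.0552 to 0.11). Median centring ended both (adjusted p = 0.284 and 0.0738). Vamp7, a SNARE of lysosome fusion, was higher by 1.08 ± 0.13 (adjusted p = 0.00013) in CD49b+ and 0.55 ± 0.13 (adjusted p = 0.0088) in CD25+ cells, the latter lost without CD4+ replicate 2 (0.37, adjusted p = 0.0894).

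**Figure D5:**
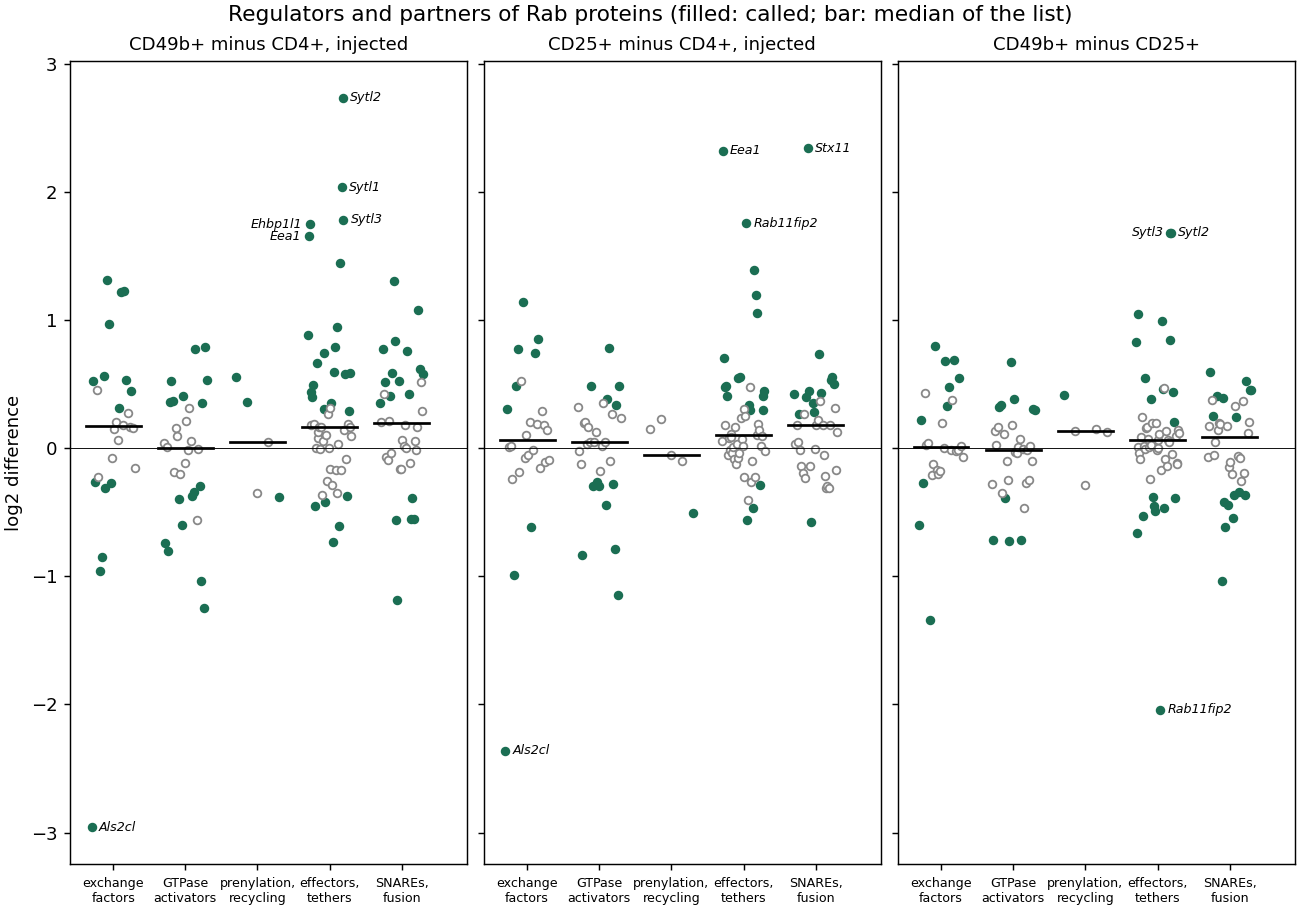
Log2 differences of the 148 tested regulator and partner genes (points, filled where called) in the 5 lists for 3 comparisons, with a bar at the median of each list; the outermost genes are named. Sytl2 and Als2cl lie furthest from 0 in CD49b+ against CD4+ cells, at 2.73 and -2.96.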

How the data were processed

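Per the labels' protocols, sorted-cell RNA was amplified from its 3′ end and biotinylated by the Affymetrix GeneAtlas procedure before hybridisation to mouse arrays. The authors deposited log2 expression values of 45141 probe sets, and the submitters' processing notes name GCRMA and Affymetrix Expression Console 1.2.1. The sources used here do not give whether all 10 arrays were normalized jointly. Gene symbols came from the platform annotation, where 28898 probe sets have 1 symbol, 551 several and 15588 none, and 104 controls were left out. Each of 17097 genes was read from its probe set with the highest mean, and the 11037 above the 50th percentile of the array on at least 2 arrays were tested. limma 3.58.1 in R 4.3.3 fitted 4 group means to all arrays (6 residual degrees of freedom), with two-sided moderated tests and Benjamini-Hochberg adjustment within each comparison, and the script was tested on simulated data. Promoters came from RefSeq.

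The members and lists were chosen with earlier results of these data known. Text names the called Rab genes, up to 6 in each direction per comparison, a set of well known Rabs (Rab27a, Rab27b, Rab37, Rab4a, Rab4b, Rab5a, Rab5b, Rab5c, Rab7, Rab8a, Rab8b, Rab11a, Rab11b and Rab35), the brightest and dimmest of each role, and up to 4 called regulators with the greatest change per list. Rab3d is not among the annotated symbols used here and was not analysed, and 1 probe set shared by Rab20 and another gene was left out. Called genes beyond that number are named too, as chosen after their values were seen. Same-numbered CD49b+ and CD25+ arrays deviated together from their group means in all 3 pairs (correlations 0.158, 0.366 and 0.641), so in that comparison the labels' replicate numbers were taken to pair the arrays, as a hint from the data, since the labels state no shared batch. The hint is weak for replicate 1, as CD49b+ replicate 1 correlated at 0.135 with CD25+ replicate 2. Values given for that comparison are from the fit without the block, except where the block is named. Same-numbered CD4+ arrays of injected mice also deviated together with CD25+ arrays (0.245 and 0.531) and with CD49b+ arrays (0.0885 and 0.522). That group holds only 2 arrays, and there the block was used as an alternative only. Naive arrays did not deviate together with the same-numbered arrays of any other group throughout. Alternatives were other filters, normalizations, probe set rules, fits and each array left out in turn. A result on 1 other GTPase family is not reported here.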

Additional observations from a re-analysis of the deposited data

Results flagged for a closer look

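The effects of the subsets against the same CD4+ arrays of injected mice differed most for Rab19 and Rab4a, the 2 Rab genes at least 2-fold apart between CD49b+ and CD25+ cells in the direct test with limma. Rab19 was 1.18 ± 0.08 log2 units higher in CD49b+ cells (adjusted p = 6.26e-06), with all 3 CD49b+ arrays above all 3 CD25+ arrays. Rab4a was 1.87 ± 0.15 log2 units higher (adjusted p = 1.94e-05), again without overlap. Both calls held under every alternative run.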

How the results depend on the processing

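Of the 45 called differences of named Rab genes, 27 kept their call under every alternative that tested the gene. The other 18 lost it under at least 1, with 0 reversed. Genes that the filter at the 70th percentile set aside, such as Rab3a and Rab32, were not tested there, and this was not counted as a loss. Among upward calls in CD49b+ against CD4+ cells, Rab4a, Rab4b, Rab7, Rab8b, Rab11a, Rab19, Rab1b, Rab27a, Rab29, Rab31, Rab35 and Rab37 kept theirs wherever they were tested. The cause of the changes below was not tested, apart from the number of genes or arrays each setting leaves.

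Counts that moved by more than 1.5 times were as follows. Rab genes called lower in CD49b+ against CD4+ cells were 8, and 14 with no filter on dim genes, 2 with the filter at the 70th percentile, 5 after quantile normalization and 4 after median centring. In CD25+ against CD4+ cells the 5 lower became 11 with no filter, 0 at the 70th percentile and 3 after centring, and the 5 higher became 14 after centring and 3 with the mean of probe sets. The 2 lower in CD49b+ against CD25+ cells became 1 at the 70th percentile. Asking for a 2-fold difference left 5 of 23, 0 of 10 and 2 of 12 Rab calls in these comparisons. Among all genes, 5892 calls became 9123 with no filter in CD49b+ against CD4+ cells, and 4261 became 7583, or 2500 at the 70th percentile, in CD25+ against CD4+ cells. In injected against naive CD4+ cells, 153 calls became 0 with only the arrays compared and 328 with array weights, and the 2 regulators became 0 and 4.

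Leaving out 1 array at a time gave 15 (without naive replicate 2) to 154 calls over all genes in injected against naive CD4+ cells, with 30 without CD4+ replicate 1 and 93 without naive replicate 1, and 0 to 3 regulators. It gave 2792 (without CD4+ replicate 1) to 4174 calls over all genes and 30 to 57 regulators in CD25+ against CD4+ cells, and 36 (without CD25+ replicate 1) to 49 regulators in CD49b+ against CD25+ cells. Lower Rab calls ranged from 4 to 8, 1 to 6 and 1 to 2 in the 3 comparisons of subsets, and higher ones from 13 to 15, 5 to 6 and 9 to 12.

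In the comparisons with CD4+ arrays the samples share only a replicate number: over all groups, deviations of same-numbered arrays correlated from -0.209 to 0.641, and 7 of 10 arrays correlated best with their own number. With the replicate block, 377 genes and 6 regulators were called in injected against naive CD4+ cells, Rab40c lost its call (-0.29, adjusted p = 0.0575), and Rab27a was called in CD25+ against CD4+ cells (0.37, adjusted p = 0.0437). In CD49b+ against CD25+ cells, where the numbers were taken to pair the arrays, the block called 13 higher and 2 lower Rab genes. All 12 called without it kept their calls. With the numbers of the 2 naive arrays crossed, an alternative chosen after seeing the data, injected against naive CD4+ cells gave 526 genes, 6 regulators, and 0 higher and 1 lower Rab gene. Probe sets close to the array median, among them most of the lower Rab calls, limit what these arrays can show.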

Other observations

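Listed genes of other small GTPase families, chosen after their values were seen, give a setting for the Rab values. The lists may not hold every gene of a family. Of 5 tested Arl genes, relatives of the Arf GTPases, 3 were higher and 0 lower in CD49b+ than in CD4+ cells of injected mice, beside 29.9% and 23.5% of all genes, with Arl1, which acts at the trans-Golgi, at 1.00 ± 0.09 (limma, adjusted p = 1.82e-05). In CD25+ cells 3 were higher and 0 lower, beside 20.8% and 17.8%, with Arl3, a GTPase of cilia, at 0.85 ± 0.13 (adjusted p = 0.000963), and against CD25+ cells CD49b+ cells had 2 higher, Arl1 among them (0.29 ± 0.08, adjusted p = 0.0203), and 1 lower, Arl3 (-0.68 ± 0.12, adjusted p = 0.00224), beside 17.5% and 12.4%. Of 11 tested Ras and Rap genes, 5 were higher and 1 lower in CD49b+ than in CD4+ cells, with Rap2a at 1.04 ± 0.13 (adjusted p = 0.000178), and the shares of all genes are those just given. In CD25+ against CD4+ cells 1 was higher, Rap2a (0.58 ± 0.13, adjusted p = 0.00749), and 3 were lower, among them Rala (-0.64 ± 0.18, adjusted p = 0.0204), with a median of -0.03. Against CD25+ cells 6 were higher and 0 lower, with Nras at 0.81 ± 0.08 (adjusted p = 7.99e-05).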
